A study of Mus musculus with 6 samples.

Results

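The genes described here make nitric oxide, supply or divert its substrate arginine, control its inhibitor asymmetric dimethylarginine (ADMA) and receive its signal. They are 10 genes chosen by symbol from the 55536 gene identifiers of the count files: Ddah1 and Ddah2, Prmt1, the nitric oxide synthase genes Nos1, Nos2 and Nos3, the arginase genes Arg1 and Arg2, and the guanylate cyclase subunit genes Gucy1a1 and Gucy1b1. The set was put together after the rise of Ddah1 had been seen in this same comparison, so the values of Ddah1 are given as a description with no test. The 6 bulk RNA-seq libraries came from stromal cells of mouse quadriceps, sorted as CD45-, CD31- and CD29+ from C57Bl/6 animals that carry a tdTomato reporter of p16, the cell cycle inhibitor that marks many senescent cells. The 3 p16+ libraries were tdTomato positive and the 3 p16- libraries tdTomato negative. Per the labels' protocols the mice lost quadriceps muscle on both sides at 10 weeks of age, the defect received 30 mg of polycaprolactone particles, decellularized matrix or 50 uL of saline, carprofen was given, and tissue was taken 1 or 6 weeks later. The series' design text speaks of a foreign body fibrosis model. The sources used here do not give the filler, the time or the number of animals behind each library, nor whether these matched between p16+ and p16-.

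Nitric oxide synthases turn arginine into citrulline and nitric oxide, which activates the soluble guanylate cyclase made of an alpha and a beta subunit, and the cyclic GMP formed relaxes smooth muscle and acts through kinases and phosphodiesterases. ADMA is set free when proteins with methylated arginine are broken down, blocks the synthases, and is hydrolysed by the enzymes of Ddah1 and Ddah2. Arginases draw on the same arginine to make ornithine, the source of polyamines and of proline for collagen. In muscle the best known sources are Nos1 in fibres, Nos3 in endothelium, and Nos2 and Arg1 in activated macrophages.

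Totals were 35253406 to 39103909 counts per library, and mitochondrial genes took 1.11% to 1.37% of them. Cdkn2a, the p16 gene, had 7.82 ± 0.961 CPM (counts scaled to the normalised library size) in p16+ and 2.13 ± 0.329 in p16- (SD, n = 3 each, as for every mean ± SD here). Stromal genes were abundant in both groups, with Pdgfra at 866 and 1018 CPM and Col1a1 at 37830 and 20410 CPM. Ptprc, the CD45 gene, stood at 7.77 and 4.89 CPM and Pecam1, the CD31 gene, at 6.73 and 3.34 CPM. Since no label says that replicates were separate animals, the p-values reflect the spread among these libraries, which may be technical.

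Of the 10 genes, 9 passed the filter on low counts, which asks for about 0.267 CPM in 3 libraries, and Arg2 did not. Nos2 lay above that level in 3 p16+ and 2 p16- libraries and Nos3 in 3 and 1, the other tested genes in all 6. Leaving out Ddah1, 3 of the 8 tested genes were higher in p16+ (Arg1, Gucy1a1 and Gucy1b1), 1 was lower (Ddah2) and 4 did not pass (Prmt1 and the 3 synthase genes). Over all 15903 genes tested, 16.7% passed the same threshold, an adjusted p of 0.05 in edgeR's quasi-likelihood test, with 8.69% higher and 8.04% lower, and the median log2 fold change was -0.01. Of the called genes 52.0% were higher, and 36.0% with library sizes alone as the scaling. The groups did not overlap for 4 of the 8 members, and for 33.1% of all genes tested. Nothing is read from the count of members, since the set was chosen with this comparison known.

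**Figure D1:**
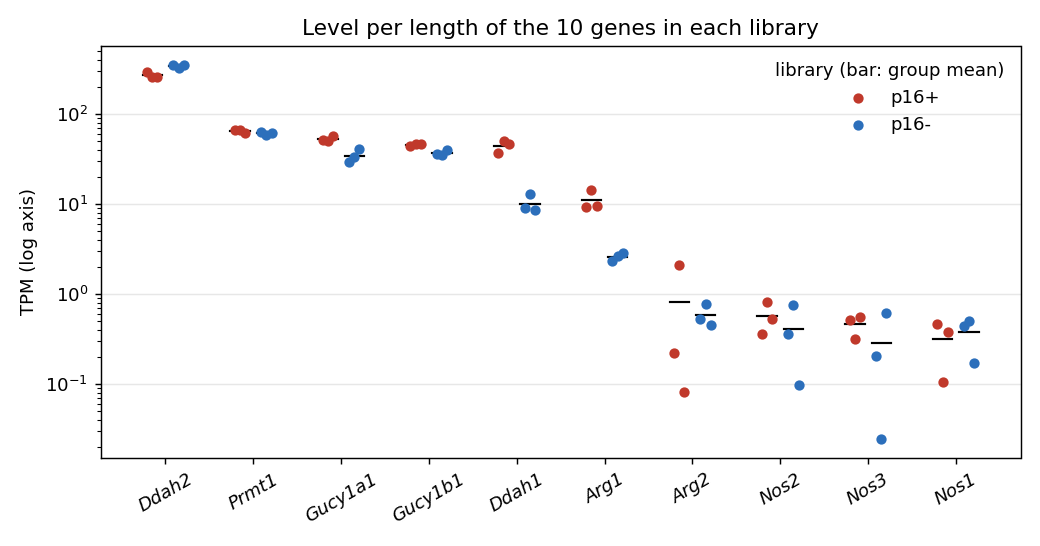
Level of each of the 10 genes in each library as TPM (a level per transcript length and library, log axis), 3 p16+ libraries in red and 3 p16- libraries in blue, with the group mean as a bar. Ddah2 stands highest in both groups, Ddah1 and Arg1 are the genes whose groups lie farthest apart, and the 3 synthase genes lie under 1 TPM in every library.

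Ddah1 (ENSMUSG00000028194.15, chromosome 3, 145758675 to 145894277, plus strand, GRCm38), one of the paralogous genes for the enzyme that hydrolyses ADMA, had 38.19, 50.29 and 46.89 CPM in p16+ replicates 1 to 3 and 9.37, 12.74 and 8.68 CPM in p16-. Every p16+ library stood above every p16- library. The means were 45.1 ± 6.24 and 10.3 ± 2.17 CPM, a log2 fold change of 2.14 (SE 0.15) or 4.39-fold. The log2 fold change lay between 2.03 and 2.32 over 14 alternative settings.

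Ddah2 (ENSMUSG00000007039.12, chromosome 17, 35059035 to 35062095, plus strand), the other gene for this activity, went the opposite way. It had 120.1, 103.7 and 104.7 CPM in p16+ and 148.6, 131.1 and 139.6 CPM in p16-, with no overlap between the groups. From p16- to p16+ it fell by 0.35 on the log2 scale (SE 0.08), with means of 139.8 ± 8.72 and 109.5 ± 9.19 CPM and an adjusted p = 0.00722 from edgeR. The call was lost without p16+ replicate 2 (adjusted p = 0.0554) and without p16+ replicate 3 (adjusted p = 0.0542).

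Per length, Ddah2 remained the more abundant of the pair in all 6 libraries. Its level was 258.6 to 291.8 TPM in p16+ and 329.9 to 355.1 TPM in p16-, where Ddah1 had 37.1 to 50.1 and 8.70 to 12.8 TPM. Ddah1 made up 11.3%, 16.2% and 15.2% of the summed Ddah TPM in p16+ replicates 1 to 3 and 2.46%, 3.74% and 2.43% in p16-. The larger share of Ddah1 came with a lower sum in TPM, 314.7 ± 12.3 TPM in p16+ against 355.1 ± 11.1 TPM in p16-, again without overlap. By CPM, without division by length, the sums of the pair overlapped between the groups and were slightly higher on average in p16+. The direction of the sum thus depends on the unit. These sums and shares hold Ddah1 and are descriptions.

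**Figure D2:**
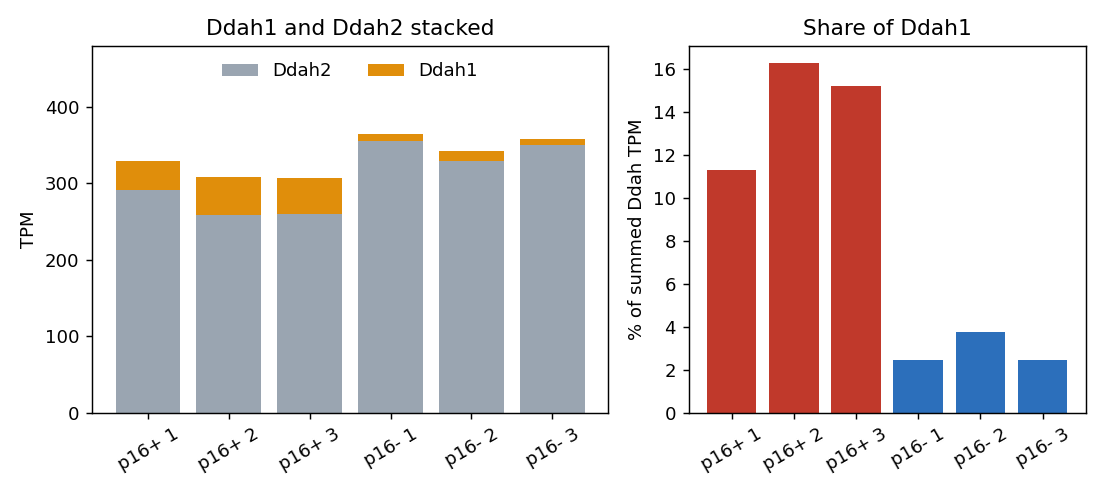
Left, TPM of Ddah2 (grey) and Ddah1 (orange) stacked for each library, and right, the share of Ddah1 in their sum in percent, p16+ red and p16- blue. The share is 11.3% to 16.2% in p16+ and 2.43% to 3.74% in p16-. The stacked total in TPM is lower in each p16+ library than in each p16- library, while totals in CPM overlap.

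The starts of these paralogues are shown because their transcripts went opposite ways, and those of the cyclase subunit genes described further on because these moved the same way. Each line holds the 250 bases before a RefSeq start, 5′ to 3′ on the gene's strand, in build GRCm38.p6, at chr3:145758442-145758691 for Ddah1 (plus strand), chr17:35058785-35059034 for Ddah2 (plus), chr3:82145651-82145900 for Gucy1a1 (minus) and chr3:82074712-82074961 for Gucy1b1 (minus). Capitals mark a GC box (GGGCGG) or a CCAAT box (CCAAT) on either strand.
Ddah1: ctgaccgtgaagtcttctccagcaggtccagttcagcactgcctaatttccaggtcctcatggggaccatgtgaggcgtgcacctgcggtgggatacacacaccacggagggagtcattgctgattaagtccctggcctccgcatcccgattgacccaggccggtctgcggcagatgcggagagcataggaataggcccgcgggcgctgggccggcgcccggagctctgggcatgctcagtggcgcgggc
Ddah2: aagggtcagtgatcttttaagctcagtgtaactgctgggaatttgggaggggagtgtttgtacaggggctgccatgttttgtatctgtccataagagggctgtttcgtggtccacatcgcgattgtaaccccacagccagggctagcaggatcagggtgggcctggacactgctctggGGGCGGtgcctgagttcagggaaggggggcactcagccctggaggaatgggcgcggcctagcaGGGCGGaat
Gucy1a1: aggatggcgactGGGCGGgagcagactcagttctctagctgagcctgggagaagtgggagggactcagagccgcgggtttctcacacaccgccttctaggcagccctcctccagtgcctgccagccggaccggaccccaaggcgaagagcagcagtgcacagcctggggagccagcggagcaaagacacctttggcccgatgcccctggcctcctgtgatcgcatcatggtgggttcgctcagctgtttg
Gucy1b1: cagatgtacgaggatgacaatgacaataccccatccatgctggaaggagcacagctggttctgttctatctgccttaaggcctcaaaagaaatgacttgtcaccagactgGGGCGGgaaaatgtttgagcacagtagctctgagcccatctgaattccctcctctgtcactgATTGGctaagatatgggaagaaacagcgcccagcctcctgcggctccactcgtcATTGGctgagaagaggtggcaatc
No GC box or CCAAT box stood in the window of Ddah1, while that of Ddah2 held 2 GC boxes, that of Gucy1a1 held 1, and that of Gucy1b1 held 1 GC box and 2 CCAAT boxes. The 2 motifs did not overlap in these windows. Of all 32851 RefSeq windows of this length, 32.7% held a GC box and 33.9% a CCAAT box. CG dinucleotides numbered 17 in Ddah1, 7 in Ddah2, 12 in Gucy1a1 and 5 in Gucy1b1, where the median window had 6. For Gucy1a1 the window nearest to the start in GENCODE is shown, of 2 that RefSeq gives. A match is a description of the letters in this window. RefSeq entries were matched for 6 of the 10 genes. Those not matched are Nos2, Nos3, Arg1 and Arg2. Among matched genes not shown, the window of Prmt1, which did not pass the test, held 4 GC boxes and 3 CCAAT boxes. That of Nos1, which did not pass either, held 0 of both, and its RefSeq start lies 85807 bases from the start in GENCODE.

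Prmt1 (ENSMUSG00000109324.2, chromosome 7, 44975989 to 44986568, minus strand), the main enzyme that forms asymmetric dimethylarginine in proteins, did not pass the test. It had 58.65, 57.88 and 53.76 CPM in p16+ and 57.18, 50.72 and 52.86 CPM in p16-, and the groups overlapped. The log2 fold change was 0.08 with an SE of 0.08 (adjusted p = 0.566 by edgeR). At 65.2 ± 2.7 and 61.5 ± 2.11 TPM it was second to Ddah2 among the 10 genes in both groups. Of 10 further genes for arginine methylation and ADMA removal 8 were tested, 1 rose, 1 fell and 6 did not pass. The share called over all genes tested was 16.7%. The median log2 fold change of the list was -0.10 beside -0.01 for all genes. Prmt7, which forms monomethylarginine, fell from 19.1 ± 0.881 to 13.2 ± 1.86 CPM (adjusted p = 0.00879 by edgeR). Carm1, another methyltransferase, rose from 52.7 ± 6.0 to 66.4 ± 5.54 CPM (adjusted p = 0.0242 by edgeR), and other genes cover 21.1% of its exons. Its call was lost under scaling by library sizes alone (adjusted p = 0.0611 by edgeR) and on leaving out replicate 2 or 3 of p16+ (0.131 and 0.0866) or replicate 1 or 3 of p16- (0.0631 and 0.0508). Prmt9 was called lower with library sizes alone (adjusted p = 0.0449), for 2 falls in this list. Agxt2, a mitochondrial enzyme that can also remove ADMA, had 4 counts in 1 library and 0 in the other 5.

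All 3 synthase genes had few counts. Nos1 (ENSMUSG00000029361.18, chromosome 5, 117781032 to 117958840, plus strand), the neuronal form, had 49, 11 and 37 counts in p16+ and 53, 56 and 18 in p16-. Nos2 (ENSMUSG00000020826.8, chromosome 11, 78920787 to 78960254, plus strand), the inducible form, had 15, 33 and 20 counts in p16+ and 17, 33 and 4 in p16-. Nos3 (ENSMUSG00000028978.12, chromosome 5, 24364810 to 24384474, plus strand), the endothelial form, had 20, 12 and 20 counts in p16+ and 9, 1 and 24 in p16-. Fragments of each gene were thus found in every library, and only the single fragment of Nos3 in p16- replicate 2 lay under the floor of 3 counts, which is 0.0767 to 0.0851 CPM. The exact Poisson 95% interval of that count was 0.0253 to 5.57, and that of the 56 counts of Nos1 in p16- replicate 2 was 42.3 to 72.7. Such intervals cover counting error only.

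No synthase reached 1 TPM in any library. The means over 6 libraries were 0.485 TPM for Nos2, 0.373 for Nos3 and 0.347 for Nos1, which is 0.158%, 0.121% and 0.113% of the level of Ddah2. Among 22028 protein-coding genes these levels lay at percentiles 39.4, 38.0 and 37.6. The order of the 3 was not settled, because their ranges overlapped: Nos2 was above Nos1 in 3 of 6 libraries per length, and Nos1 was above Nos2 in 5 of 6 by CPM, where the longer Nos1 transcript collects more fragments. The mean log2 ratio of Nos1 to Nos2 was -0.41 in TPM (SD 1.34 over libraries) and 0.93 in CPM.

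Between the groups the synthase genes overlapped. Summed over the 3 genes, p16+ libraries held 84, 56 and 77 counts, and p16- libraries 79, 90 and 46. The log2 fold changes had wide errors, -0.23 (SE 0.60) for Nos1, 0.48 (SE 0.74) for Nos2 and 0.71 (SE 0.89) for Nos3, and none passed (adjusted p = 0.85, 0.733 and 0.662 by edgeR). Libraries of 1 group differed by more than counting error: the 95% intervals of Nos1 in p16+ replicates 1 and 2 were 36.3 to 64.8 and 5.49 to 19.7 counts, and those of Nos3 in p16- replicates 2 and 3 were 0.0253 to 5.57 and 15.4 to 35.7. Of the exonic length of Nos3 32.3% is overlapped by Atg9b and Gm15587 on the opposite strand, and fragments that fall in both genes were left uncounted under the deposited settings.

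Endothelial, glial and muscle fibre markers, whose cell types express synthases, were present at low levels. The 10 endothelial markers summed to 91.3 to 116.5 CPM in p16+ and 194.5 to 226 in p16-, of which Tek alone gave 49.2 and 168.2 CPM on average. Without Tek the other 9 summed to 48.4 to 58.9 and 38.3 to 45.7 CPM. Of the 10, 3 rose, 1 fell (Tek) and 6 did not pass, where 16.7% of all genes tested were called. Those that rose were Pecam1, Emcn (5.63 against 2.63 CPM) and Vwf (4.75 against 1.99 CPM), with adjusted p = 0.00871, 0.00683 and 0.0257 by edgeR. On leaving out p16+ replicate 3, 1 endothelial marker was called higher, and with DESeq2 5 were. The 8 glial and neural markers summed to 39.8 to 51.5 CPM in p16+ and 72.8 to 131.7 in p16-, with Snap25 at 0 throughout. The 10 muscle markers summed to 28.0 to 39.6 and 24.2 to 29.1 CPM, and 1 rose (Pax7, a satellite cell gene), 0 fell and 9 did not pass. The call of Pax7 was lost on leaving out replicate 1 or 2 of p16+ or replicate 3 of p16-, which gave 0. Their part in the synthase counts was not tested.

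Genes that serve the synthases changed in both directions. Of 12 partner genes 11 were tested, 2 rose, 1 fell and 8 did not pass (median log2 fold change 0.14). The share called over all genes tested was 16.7%. Cav1, the caveolin gene whose protein binds and restrains endothelial synthase, rose from 261.6 ± 37.0 to 417.1 ± 6.36 CPM (adjusted p = 0.000109 by edgeR). The chaperone gene Hsp90aa1 fell from 251.6 ± 22.9 to 194.1 ± 15.3 CPM (adjusted p = 0.00714, and 0.0538 without p16- replicate 3). Akt1, a kinase gene, rose from 168.8 ± 4.46 to 197.2 ± 6.64 CPM (adjusted p = 0.0464 by edgeR), a call that was lost in 7 of 14 settings. These were library sizes alone (0.174), no filter (0.0687), each p16+ library left out (0.145, 0.161 and 0.0823 for replicates 1 to 3) and p16- replicate 2 or 3 left out (0.0526 and 0.133). Tetrahydrobiopterin is the cofactor of all 3 synthases. Of 8 genes that make or recycle it 7 were tested, 1 rose, 0 fell and 6 did not pass (median -0.04), beside the same 16.7%. The member that rose, Pcbd1, went from 2.08 ± 0.519 to 3.78 ± 0.135 CPM (adjusted p = 0.0493 by edgeR) and lost its call in 9 of 14 settings, including each of the 6 that leave out 1 library (0.12, 0.107 and 0.0995 for p16+ replicates 1 to 3, and 0.0534, 0.0601 and 0.187 for p16-). Gch1, the gene of the first enzyme of this route, chosen outside the rule with its values known, stood at 9.83 ± 1.35 CPM in p16+ against 10.99 ± 3.77 in p16-, and the test gave an adjusted p = 0.672 in edgeR.

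Arg1 (ENSMUSG00000019987.9, chromosome 10, 24915221 to 24927484, minus strand), the cytosolic arginase gene, rose at a low level. It had 195, 296 and 185 counts in p16+ and 55, 59 and 59 in p16-, or 5.37, 8.06 and 5.40 against 1.35, 1.49 and 1.59 CPM. The groups did not overlap, and p16+ replicate 2 was the highest library. The log2 fold change was 2.09 (SE 0.26, adjusted p = 3.45e-05 by edgeR), or 4.25-fold, and it lay between 1.87 and 2.19 over 14 alternative settings. Per length Arg1 reached 11.1 ± 2.84 TPM in p16+ and 2.61 ± 0.271 TPM in p16-, below Ddah1 in both groups.

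Some macrophage markers rose as well. The 18 macrophage and leukocyte markers summed to 294.6 to 348.9 CPM in p16+ and 213.5 to 237.7 in p16-, 1.43 times as high on the means. Of these sums Lyz2 alone gave 167.7 and 124.2 CPM on average. Of the 17 tested, 6 rose (Csf1r, Lyz2, Mrc1, C1qa, C1qb and C1qc), 0 fell and 11 did not pass, of which Chil3, Aif1 and Cd163 had log2 fold changes of -0.53, -0.11 and -0.06. Over all genes tested 16.7% were called, with 8.69% higher. Csf1r, a macrophage receptor gene (other genes cover 15.1% of its exons), had 28.2 and 12.5 CPM, Adgre1 6.37 and 4.23 CPM and Cd68 15.8 and 15.6 CPM, while Retnla and Chil3, which accompany Arg1 in alternatively activated macrophages, had 3.56 and 1.87 and 0.210 and 0.305 CPM. No marker of this list was at 0 in all libraries. Their part in the rise of Arg1 was not tested. In bulk libraries more cells of a type cannot be told apart from more RNA per cell.

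Arg2 (ENSMUSG00000021125.6, chromosome 12, 79130777 to 79156301, plus strand), the mitochondrial arginase gene, had 3, 28 and 1 counts in p16+ and 8, 11 and 6 in p16-. The p16+ libraries thus held both the highest and the lowest values, and the gene did not pass the filter. Of its exonic length 28.1% is overlapped by Vti1b and Gm48780 on the opposite strand. In the settings that tested Arg2, its adjusted p was 0.643 to 0.934.

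**Figure D3:**
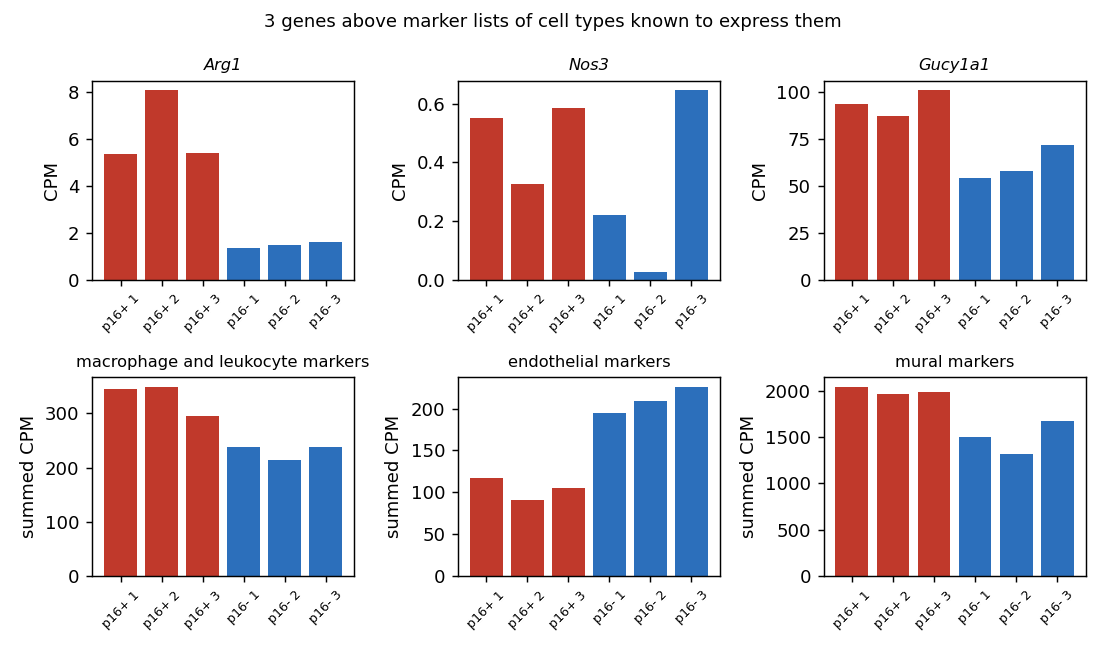
Upper row, CPM of Arg1, Nos3 and Gucy1a1 in each library, and lower row, the summed CPM of the marker lists of macrophages and leukocytes, endothelium and mural cells in the same libraries, p16+ red and p16- blue. Arg1 and Gucy1a1 are higher in every p16+ library, as are the summed macrophage and mural markers, while Nos3 overlaps between groups and the endothelial sum, carried largely by Tek, is higher in p16-.

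Genes that bring in or rebuild arginine included a large rise. Of 12 such genes 9 were tested, 2 rose, 0 fell and 7 did not pass (median log2 fold change 0.02). The share called over all genes tested was 16.7%. Slc7a2, which encodes the cationic amino acid transporter CAT2, rose from 42.6 ± 5.72 to 105.1 ± 5.61 CPM, by 1.304 on the log2 scale with an SE of 0.09 (adjusted p = 2e-07 by edgeR). Ass1, whose enzyme starts the rebuilding of arginine from citrulline, rose from 3.82 ± 0.959 to 6.74 ± 0.332 CPM (adjusted p = 0.0168 by edgeR), and lost its call without p16+ replicate 1 (adjusted p = 0.06) and without p16- replicate 3 (adjusted p = 0.0839). Slc3a2, an amino acid transporter chain, was called lower with library sizes alone and without p16- replicate 2 (adjusted p = 0.0264 and 0.0181), which gave 1 fall in this list. The urea cycle genes Otc and Nags had 0 counts in all 6 libraries.

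Downstream of arginase, genes changed in both directions, and polyamine genes were among those that rose and those that fell. Of 18 genes for ornithine, polyamines and proline 17 were tested, 6 rose, 3 fell and 8 did not pass (median log2 fold change 0.15). Over all genes tested 16.7% were called, 8.69% higher and 8.04% lower. The list was chosen with earlier results of these data known, so its count is not read as a result. The 6 that rose were Pycr1 and Aldh18a1 of proline synthesis and the polyamine genes Srm, Smox, Azin2 and Oaz2. The 3 that fell were Sat1, Azin1 and Gatm. Pycr1, the last enzyme of proline synthesis, rose from 26.4 ± 1.23 to 42.8 ± 2.65 CPM (adjusted p = 5.95e-05 by edgeR). Sat1, which acetylates polyamines for export and breakdown, fell from 370.5 ± 26.3 to 241.8 ± 18.7 CPM (adjusted p = 8.51e-05 by edgeR). The antizyme inhibitor genes, whose proteins protect ornithine decarboxylase, split: Azin1 fell from 152.3 ± 23.5 to 98.5 ± 7.54 CPM (adjusted p = 0.000351) and Azin2 rose from 15.1 ± 2.04 to 24.9 ± 1.8 CPM (adjusted p = 0.000645). Pycr1, Sat1, Azin1 and Azin2 kept their call in all 14 settings, as did Aldh18a1, Srm and Gatm. Oaz2 lost its call in 4 of the 14 settings and Smox in 2.

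Transcripts of both subunit genes of the nitric oxide receptor were present in both groups and higher in p16+. Gucy1a1 (ENSMUSG00000033910.13, chromosome 3, 82092427 to 82145789, minus strand), the alpha subunit gene, had 93.81, 87.18 and 100.8 CPM in p16+ and 53.96, 57.68 and 71.73 CPM in p16-, with no overlap. The mean rose 1.54-fold, from 61.1 ± 9.37 to 93.9 ± 6.81 CPM, or by 0.62 on the log2 scale with an SE of 0.10 (adjusted p = 0.000366 by edgeR). Gucy1b1 (ENSMUSG00000028005.13, chromosome 3, 82032006 to 82074689, minus strand), the beta subunit gene, lies 17737 bases from Gucy1a1 on the same strand. It had 45.26, 46.50 and 45.93 CPM in p16+ and 37.27, 34.63 and 39.10 CPM in p16-, also without overlap. The rise was 1.24-fold, or 0.31 on the log2 scale with an SE of 0.09 (adjusted p = 0.0188 by edgeR). The call of Gucy1b1 was lost under scaling by library sizes alone (adjusted p = 0.068) and on leaving out replicate 2 or 3 of p16+ (0.0713 and 0.0598) or replicate 2 of p16- (0.0701).

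Per length the subunit genes were close to each other. Gucy1a1 had 53.0 ± 3.84 TPM in p16+ and 34.6 ± 5.92 in p16-, and Gucy1b1 had 46.0 ± 1.24 and 37.1 ± 2.34 TPM. The p16+ libraries had alpha to beta ratios of 1.17, 1.06 and 1.24, each above the ratios of 0.816, 0.939 and 1.03 in p16-. This difference was not tested. The other alpha subunit gene, Gucy1a2, named outside the rule, had 1.75 ± 0.661 and 2.35 ± 0.521 TPM. The 10 mural markers, whose cells are known for this cyclase, summed to 1963 to 2044 CPM in p16+ and 1314 to 1679 in p16-. The means were 1.33 times as high, and Rgs5 alone gave 914.9 and 704.2 CPM on average. Of the 10, 6 rose, 0 fell and 4 did not pass, where 16.7% of all genes tested were called. Among the 4, Cnn1, Kcnj8 and Cspg4 had log2 fold changes of -0.43, -0.35 and -0.15. A fall of 1 marker was called with library sizes alone, with no filter, with a replicate block, and without p16+ replicate 1 or p16- replicate 2. No marker was at 0 in all libraries. The part of mural cells in the cyclase values was not tested.

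Cyclic GMP genes beyond the cyclase changed in both directions. Of 20 such genes 18 were tested, 5 rose, 2 fell and 11 did not pass (median log2 fold change 0.20). The share called over all genes tested was 16.7%, and the count of the list is not read as a result. Npr1, the membrane guanylate cyclase that is the receptor of atrial natriuretic peptide, fell from 129.4 ± 14.3 to 34.3 ± 9.42 CPM, a log2 fold change of -1.91 with an SE of 0.16 (adjusted p = 7.92e-06 by edgeR). Other genes cover 11.7% of its exons. Among phosphodiesterase genes Pde10a fell from 27.0 ± 1.8 to 16.7 ± 1.04 CPM (adjusted p = 0.000291), Pde5a, which is selective for cyclic GMP, rose from 28.0 ± 0.514 to 37.3 ± 0.986 CPM (adjusted p = 0.00375) and Pde11a rose from 2.33 ± 0.814 to 5.96 ± 1.45 CPM (adjusted p = 0.00417). The number that rose was 2 with library sizes alone and also on leaving out replicate 1 or 3 of p16+ or replicate 2 of p16-. It was 3 on leaving out replicate 1 or 3 of p16- and with limma-voom, while the 4 genes named here kept their call in all 14 settings. Of 8 genes that scavenge nitric oxide or remove it from thiols, all tested, 1 rose, 0 fell and 7 did not pass (median 0.05). The share over all genes was the same 16.7%. The 1 that rose was Cyb5r3, whose reductase sets nitric oxide scavenging by globins, from 182.1 ± 3.51 to 273.6 ± 19.2 CPM (adjusted p = 5.89e-05 by edgeR). Cygb, the cytoglobin gene of fibroblasts, named outside the rule, had 485.5 ± 19.3 and 458.5 ± 52.2 CPM (adjusted p = 0.604 by edgeR).

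**Figure D4:**
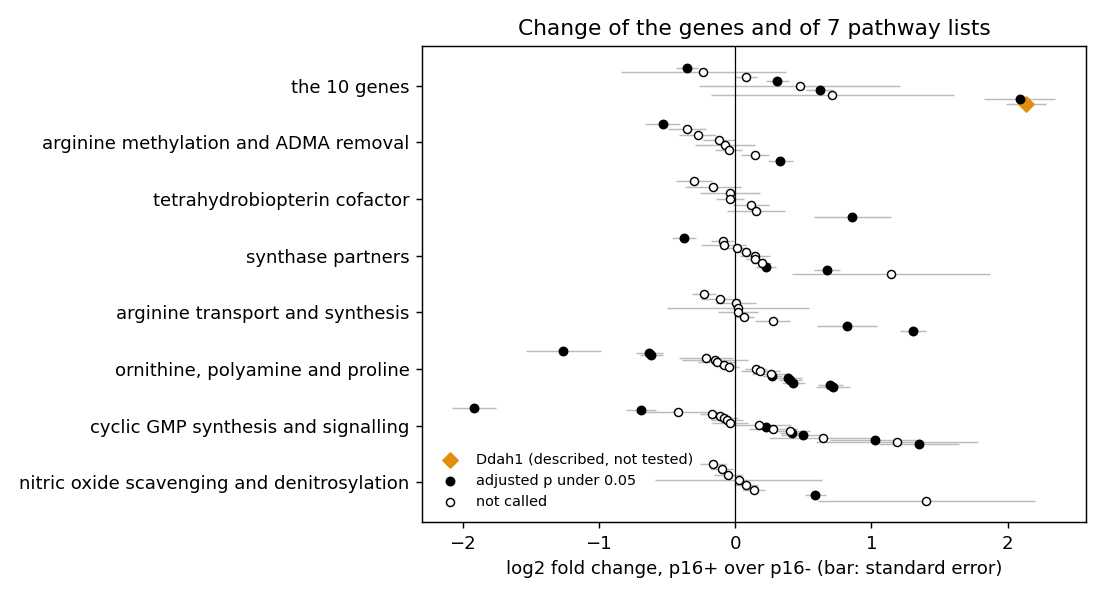
Log2 fold change of p16+ over p16- with its standard error for the tested genes of the set and of 7 pathway lists, filled where the adjusted p was under 0.05, open where it was not, and Ddah1 as an orange diamond because it was described without a test. Ddah1 and Arg1 lie near 2 on this axis, Ddah2 left of 0, and Npr1 at -1.91 is the lowest point.

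Taking the 7 pathway lists as 1 group, 78 of 88 genes were tested, 18 rose, 7 fell and 53 did not pass, so 32.1% were called beside 16.7% of all genes. This share is not read as a result, since the lists were chosen with earlier results of these data known. With library sizes alone, without p16+ replicate 1, without p16+ replicate 3 or without p16- replicate 3 the number that rose was 11.

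Per length the order in p16+ was Ddah2, Prmt1, Gucy1a1, Gucy1b1, Ddah1, Arg1, Arg2, Nos2, Nos3 and Nos1. In p16- Gucy1b1 stood before Gucy1a1 and Nos1 before Nos3, and the order was otherwise the same. Neighbours that overlapped in p16+ were Gucy1b1 with Ddah1 and all of the last 4, and in p16- Gucy1b1 with Gucy1a1 and again the last 4.

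Among 10470 named genes with a mean log2 CPM of at least 2, those whose log2 CPM ran most alike with that of Ddah1 over the 6 libraries were Timp1 (r = 0.9992), Bgn (r = 0.9988) and Yif1a (r = 0.9987). Timp1, an inhibitor of metalloproteinases, had 502.4, 577.9 and 541.5 CPM in p16+ and 195.7, 233.0 and 182.3 in p16-. As with Ddah1, replicate 2 was the highest library of each group in all 3 genes. Yif1a changed much less, from 42.5 ± 1.02 to 54.5 ± 1.55 CPM, which shows that this likeness is of shape and not of size. These correlations share the 2 groups and the library scaling and are a description.

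Exact two-sided permutation tests on the log2 CPM of the 9 genes other than Ddah1 gave p = 0.1 for Ddah2, Gucy1a1, Gucy1b1 and Arg1 (no overlap), the smallest that 3 against 3 libraries allow. For the other 5 genes p was 0.2 to 0.8.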

How the data were processed

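RNA-seq counts of 6 libraries were used. The authors' deposited values are raw counts of read pairs for each gene from featureCounts 1.6.0 on exons of GENCODE vM21 with no option for strand, overlap or multiple mapping, per the file headers. The submitters' processing notes name STAR 2.7.3a and GRCm38.p6. The library kit does not mark strand, so genes on opposite strands that overlap cannot be told apart. All 55536 identifiers and positions matched vM21, which gave the symbols.

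From these counts, filterByExpr left 15903 genes. TMM factors, CPM and the quasi-likelihood test (robust) came from edgeR 4.0.16 in R 4.3.3, with the group as the only term, Benjamini-Hochberg adjustment over all genes tested and a threshold of 0.05. Log2 CPM used a prior count of 2. The SE of a fold change is its size divided by the square root of F. TPM was computed from counts and the exonic length in the files, without TMM. The tests were also run on counts simulated with the same spread between libraries for every gene (coefficient of variation 0.158). That run does not cover genes with a wider spread, such as the synthase genes and Arg2. No 2 libraries agreed within sampling noise.

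The members and lists were chosen with earlier results of these data known. In each pathway list the text gives values for up to 4 called genes with the smallest p. For ornithine, polyamines and proline it names all called genes. It also names Cdkn2a, the sort genes, markers, and the 3 genes most correlated with Ddah1. Alternatives were RLE, upper-quartile and no factors, dropping the filter, raising it to a CPM of 1 in 3 libraries, DESeq2 1.42.0, limma-voom (limma 3.58.1), a replicate block, and leaving out each library. Calls within the glial and neural marker list are not reported here.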

Additional observations from a re-analysis of the deposited data

How the results depend on the processing

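Of the 8 tested genes other than Ddah1, 3 were called higher and 1 lower. Leaving out 1 library in turn gave 2 to 3 higher and 0 to 1 lower, and the other 8 settings gave 2 to 3 higher and 1 lower. Over the 7 pathway lists 18 were higher and 7 lower, and without 1 library 11 to 14 and 6 to 8. With library sizes alone 11 pathway genes were higher and 9 lower, and over all genes 1059 were higher and 1882 lower in place of 1382 and 1278. That scaling moved the median log2 fold change of all genes from -0.01 to -0.08. The call counts over all genes were 977 to 1333 higher and 910 to 1234 lower with 1 library left out. The mean log2 ratio of Nos1 to Nos2 was 0.93 in CPM and -0.41 in TPM, which follows from the length of Nos1. With the replicate number as a block the same numbers of members were called, 3 higher and 1 lower, and 19 pathway genes were higher and 7 lower, with 1605 higher and 1509 lower over all genes. The labels pair no animals. Deviations of same-numbered libraries from their group means correlated at 0.028, 0.082 and -0.005. Libraries of unlike number gave -0.069 to 0.039, so 0.082 was the highest value. With 3 libraries in each group these values cannot decide whether the numbers mark pairs. The main fit did not take them as pairs. No result changed its sign while called. The synthase genes and Arg2 had 1 to 56 counts per library, and replicates of 1 group differed by more than counting error, as with 28 counts (18.6 to 40.5) and 1 count (0.0253 to 5.57) of Arg2 in p16+. The parts of depth and of spread between libraries were not tested.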
